A study of Mus musculus with 11 samples.

Results

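The promoters described here are CpG-rich starts of protein-coding genes at which the pooled list of accessible regions from MPC2 cells held no region. A start was counted as CpG-rich when the 1 kb centred on it had a GC content of at least 55% and a ratio of observed to expected CpG of at least 0.6. The members were chosen by the measured regions themselves: of 8252 CpG-rich coding starts on the autosomes, 783 had no region within 1 kb, which is 9.49% (95% Wilson interval 8.88% to 10.1%, counting error only). Their lack of a region is therefore what selected them and not a result. What follows describes which genes they belong to and which features they share. Distances to regions, regions in the gene and base composition are tied to the selection and are given as descriptions.

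The regions came from ATAC-seq, which marks open DNA by where a transposase can cut it, of 11 cultures of MPC2, a single clone of conditionally immortalised mouse mesenchymal progenitors. Of the undifferentiated mesenchymal stem cells (MSC), 3 cultures received vehicle (DMSO) and 3 received FG-4592, a compound that stabilises HIF, at 50 uM for 48 hours. Of the cells differentiated into osteocytes over 3 weeks, 2 received vehicle and 3 the same dose of FG-4592 for the same time. The list of 94963 regions pooled all cultures and carried 1 value per region, read as the average log2 CPM (transposase cuts scaled by library size, on a log2 scale), so no value had a replicate error, the depth per culture was unknown and no comparison between groups could be made from it. A start without a region is thus one for which the pooled list holds no region nearby, which is not a measurement that the DNA was closed, and fewer open cells cannot be told apart from weaker opening in each cell.

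Most promoters in the mouse are either rich or poor in CpG dinucleotides. CpG-rich promoters, the CpG islands, usually stay free of DNA methylation and are open in most cell types, whether or not the gene is strongly transcribed. The known exceptions include islands of developmental transcription factors, which Polycomb complexes can hold silent, and islands of germline genes, which can be methylated in somatic cells. Neither histone marks nor methylation were analysed here.

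To show the DNA concerned, the 120 bases just upstream of the start are given, on the gene's strand from 5′ to 3′, for 5 members chosen from those with the longest CpG-rich stretches. CpG dinucleotides are in capitals. The bases come from the mm10 (GRCm38) genome and lie in no annotated exon.
Tlx3 (chr11:33203590-33203709, minus strand): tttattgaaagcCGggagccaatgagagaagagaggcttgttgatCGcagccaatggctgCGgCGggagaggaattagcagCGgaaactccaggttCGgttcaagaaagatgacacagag
Sall1 (chr8:89044163-89044282, minus strand): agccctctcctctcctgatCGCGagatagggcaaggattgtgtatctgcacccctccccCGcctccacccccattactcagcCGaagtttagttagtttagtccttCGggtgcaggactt
Olig2 (chr16:91225337-91225456, plus strand): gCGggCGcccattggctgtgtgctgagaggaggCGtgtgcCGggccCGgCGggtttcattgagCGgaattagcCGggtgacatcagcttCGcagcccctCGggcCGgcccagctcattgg
Insm1 (chr2:146221801-146221920, plus strand): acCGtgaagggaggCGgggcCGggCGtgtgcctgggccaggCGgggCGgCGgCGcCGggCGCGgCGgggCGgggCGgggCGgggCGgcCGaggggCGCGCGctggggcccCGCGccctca
Sox1 (chr8:12395175-12395294, plus strand): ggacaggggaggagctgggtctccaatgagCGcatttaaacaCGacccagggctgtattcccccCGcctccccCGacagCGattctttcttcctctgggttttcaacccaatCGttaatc
These 120 bases held 6 CpG at Tlx3, 5 at Sall1, 11 at Olig2, 22 at Insm1 and 6 at Sox1. For comparison, the same stretch of Twist1, a mesenchymal factor whose start lay inside a region of 6.13 log2 CPM, held 9.
Twist1 (chr12:33957551-33957670, plus strand): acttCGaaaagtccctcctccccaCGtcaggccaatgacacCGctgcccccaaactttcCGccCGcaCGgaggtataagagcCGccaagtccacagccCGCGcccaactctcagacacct

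Developmental transcription factors made up a large group of the members. The lists of homeobox, Hox, Pax, Sox, forkhead, T-box, tissue helix-loop-helix, GATA, Zic and Gli, nuclear receptor, Sp and Klf and other cell fate factors together had 283 CpG-rich starts, of which 72 (25.4%, interval 20.7% to 30.8%) had no region, against 9.49% of all CpG-rich coding starts. Homeobox genes outside the Hox clusters contributed 33 of 90 (36.7%, interval 27.4% to 47.0%), and 17 of these 33 had a region within 5 kb. Sox genes contributed 6 of 14 (42.9%), T-box genes 4 of 8 (50%) and the mixed list of other fate factors 14 of 55 (25.5%). The shares of forkhead genes (4 of 28), tissue helix-loop-helix factors (2 of 18), Sp and Klf factors (2 of 18) and Hox genes (3 of 20) had intervals that included the share of all CpG-rich starts. So did those of Zic and Gli factors (1 of 7), nuclear receptors (1 of 19) and GATA factors (0 of 2). Nuclear receptors and GATA factors lay below that share. Numbered zinc finger genes, a large family of mostly ubiquitous factors kept apart from the sum above, lay below it with 6 of 171 (3.51%, interval 1.62% to 7.44%).

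**Figure D1:**
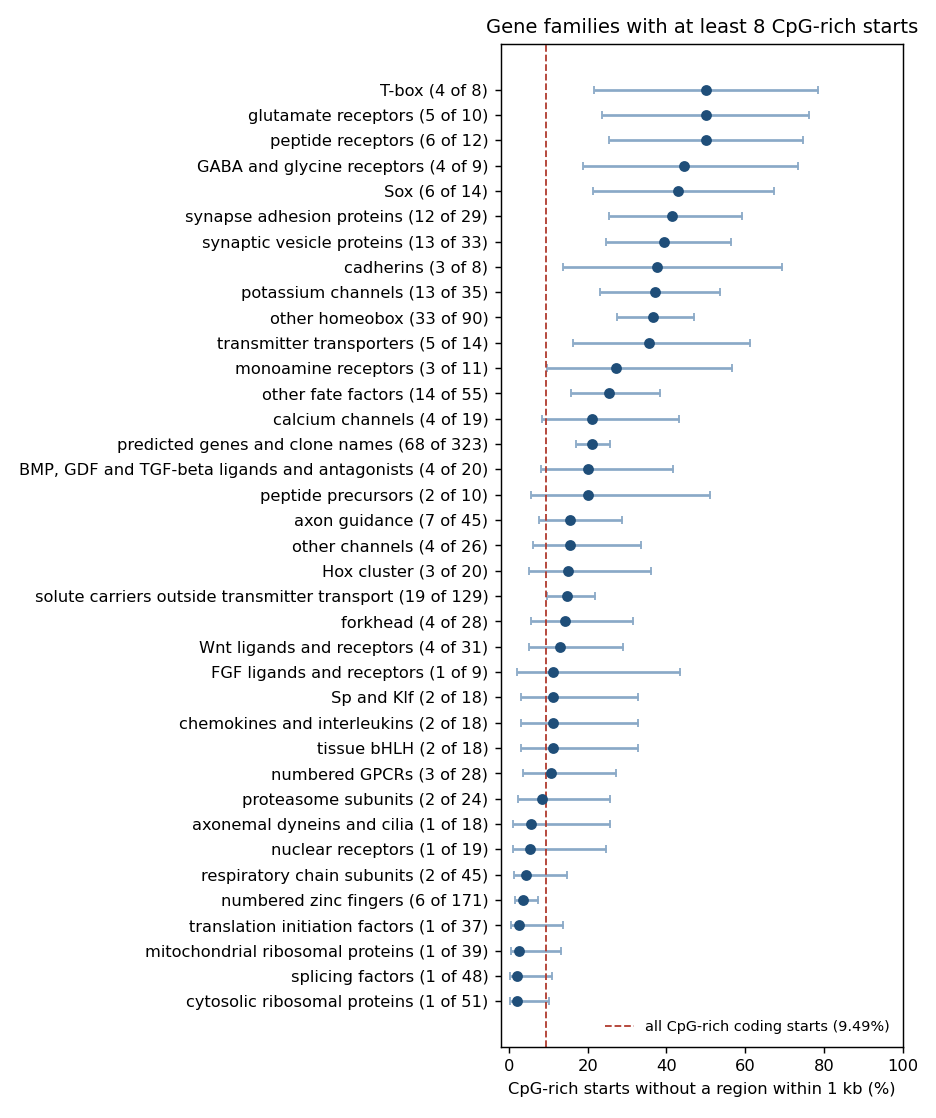
Share of CpG-rich starts without a region within 1 kb (x axis, percent) for each gene family with at least 8 such starts (y axis, with the counts). Points are shares, bars 95% Wilson intervals for counting error, and the dashed line the share of all CpG-rich coding starts, 9.49%. Transmitter and peptide receptor, synapse, Sox, T-box and homeobox lists lie to the right of the line. Nuclear receptors (1 of 19) lie to its left, and 4 of the 6 lists of genes that every cell needs have shares under 4%.

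Within the homeobox family, the members included regulators of the nervous system, sense organs and kidney. Tlx3, which specifies excitatory neurons of the spinal cord, had its nearest region 1942 bp away at 1.05 log2 CPM. Nkx1-1 lay 4233 bp from a region, Nkx6-1, a factor of motor neurons and pancreatic beta cells, 100048 bp, and Barhl2, a factor of the retina and spinal cord, 115794 bp. Six6, Six3, Otx2, Lhx5, Gsx2, Dbx1, Hmx1, Hmx3 and Phox2a were further members with roles in the eye, brain, inner ear or peripheral nervous system. Lhx1 and Six2, both needed in the early kidney, lay 2208 bp and 8232 bp from a region, and Lhx1 had another annotated start with a region.

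Other homeobox genes with CpG-rich starts did have a region. Among them, Irx3 had 6.69 log2 CPM, Meis2 5.55, Msx1 5.51, Shox2 5.43, Dlx5 5.37 and Mkx, a tendon factor, 4.68. Levels did not follow tissue throughout, since the forebrain factors Emx2 (6.08) and Dlx2 (5.53) were high and Alx4, a limb and skull factor, was at 1.16. Levels were low at Mnx1 (0.20), Pou4f3 (0.62) and Cdx2 (1.04), so that presence in the list covered a wide range. The 211 transcription factor starts with a region had a median of 4.15 log2 CPM, beside a median of 5.39 over all 7469 CpG-rich starts with a region.

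Related genes of other families fell on different sides. Sox2, Sox1, Sox11 and Sox14, factors of neural progenitors and neurons, had no region, while Sox9, the chondrocyte factor, had 6.24 log2 CPM, Sox13 4.08 and Sox5 3.28. The split did not follow tissue throughout, since Sox17, an endoderm and endothelial factor with a region at another start, and Sox30, a testis factor, had no region, and Sox21 (3.25), Sox8 (2.90) and Sox12 (1.46), genes active in the nervous system, had a region. The start of Sox2 was 316389 bp from any region, in a region-free interval of 891 kb, and that of Sox1 3400 bp. Olig2, which drives oligodendrocyte and motor neuron fates, lay 22165 bp from a region, while Olig1 had a region of 3.44 log2 CPM. Atoh1, a factor of hair cells and cerebellar granule neurons, was the other member of the tissue helix-loop-helix list, at 78880 bp. Hes5, a Notch target of neural progenitors placed in the mixed list, lay 2955 bp from a region. Among T-box genes, Tbx1, Tbx3, Tbx20 and Tbx21 had no region, and Tbx1 had a region at another start. The T-box starts with a region were Mga (4.77 log2 CPM), Tbx2 (4.16), Eomes (1.85) and T (1.74).

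The remaining fate factors were spread over several tissues. Sall1, a kidney and limb factor, lay 22583 bp from a region. Insm1, a factor of neuroendocrine cells, had a region 1175 bp from its start that reached into its CpG-rich stretch. Pax7, the marker of muscle stem cells, lay 18576 bp from a region, and Pax9 had a region at another start. Foxd3, Foxe1, Foxb1 and Foxl1 were the forkhead members, with Foxb1 137343 bp from a region. Of the Hox genes, Hoxb7, Hoxb9 and Hoxd8 had none within 1 kb, yet Hoxb9 lay 1295 bp and Hoxb7 1699 bp from the nearest.

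Channel, receptor and synapse genes formed a group of similar size. Their lists followed gene symbols and were not limited to genes of excitable cells. Ion channels, neurotransmitter and neuropeptide receptors, peptide precursors, synaptic vesicle proteins, transmitter transporters and synapse adhesion proteins together had 217 CpG-rich starts, 74 of them without a region (34.1%, interval 28.1% to 40.6%). Potassium channels gave 13 of 35 (37.1%), synaptic vesicle proteins 13 of 33 (39.4%), synapse adhesion proteins 12 of 29 (41.4%), glutamate receptors 5 of 10, GABA and glycine receptors 4 of 9 and peptide receptors 6 of 12. Calcium channels, with 4 of 19, and monoamine receptors, with 3 of 11, had wide intervals (8.51% to 43.3% and 9.75% to 56.6%). The intervals of calcium channels, other channels (4 of 26, 6.15% to 33.5%), peptide precursors (2 of 10, 5.67% to 51.0%) and sodium channels (1 of 5, 3.62% to 62.4%) included the share of all CpG-rich starts.

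Several of these genes lay far from any region. Grik2, a kainate-type glutamate receptor subunit, was 792586 bp from the nearest region, and Grik3 181106 bp. Gabra2, Gabra5 and Gabrg3, subunits of the GABA-A receptor, were 561922 bp, 343829 bp and 220958 bp away, and the last pair shared a region-free interval of 806 kb on chromosome 7. Among synaptic proteins, Pclo, a scaffold of the presynaptic active zone, was 194388 bp, Syt9, a calcium sensor of vesicle release, 155665 bp and Nptx2, a secreted protein that clusters glutamate receptors, 187064 bp from a region.

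Other members of these lists had a region nearer by, at 3057 to 47944 bp for those named next. Among the potassium channels, Kcnk9, a leak channel, lay 3057 bp and Kcnd3, a channel of fast transient current, 47944 bp from the nearest region. Slc18a3, the vesicular acetylcholine transporter, lay 8202 bp and Slc32a1, the vesicular GABA transporter, 13739 bp away, and the region nearest to Slc32a1 had 5.16 log2 CPM. Of the peptide receptors, Crhr1, the receptor for corticotropin-releasing hormone, lay 7894 bp and Ghsr, the ghrelin receptor, 32560 bp from a region.

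The lists of signalling ligands and receptors together gave 13 of 90 (14.4%, interval 8.64% to 23.2%). Cadherins gave 3 of 8, with Cdh1, the epithelial cadherin, 1970 bp from a region of 2.12 log2 CPM, Cdh6 at 84722 bp and Cdh8 at 247808 bp. Axon guidance genes gave 7 of 45 (15.6%, interval 7.75% to 28.8%), and 3 of the 7 had a region at another start. Wnt ligands and receptors gave 4 of 31 (12.9%), namely Wnt3, Wnt3a, Fzd10 and the antagonist Sfrp2, and BMP, GDF and TGF-beta genes 4 of 20, namely Bmp7, Gdf7, Bmp8b and Chrdl2. The intervals of the signalling, axon guidance, Wnt (5.13% to 28.9%) and BMP (8.07% to 41.6%) shares included the 9.49% of all CpG-rich starts, as did those of protocadherins (0 of 7, up to 35.4%) and of hedgehog and Notch ligands (0 of 6, up to 39.0%).

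By lineage, germline genes had the highest share, though its interval overlapped those of all other lineage lists except mesenchyme and bone. Of 33 CpG-rich starts in a list of meiosis and germ cell genes, 17 (51.5%, interval 35.2% to 67.5%) had no region. The members included Sycp1 and Sycp3, structural proteins of the synaptonemal complex, Dmc1, the meiotic recombinase, Ddx4, Mael, Mov10l1, Tdrd1 and Tdrd5, factors of the piRNA pathway, and Boll, Lin28b and Zar1, RNA-binding proteins. Sycp3 was 1191 bp from the nearest region, Ddx4 7846 bp, Sycp1 36524 bp and Lin28b 112787 bp. The list also held genes used outside the germline. Levels at its starts with a region were highest at Hspa2 (6.99 log2 CPM), Hspb11 (6.20), Msh5 (5.70), Prdm9 (5.45) and Tdrkh (5.01). Dazl had a region of 3.36 log2 CPM and Stag3 of 1.63.

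Epithelial genes gave 8 of 18 (44.4%, interval 24.6% to 66.3%). They were Cdh1, Dsp, a protein of desmosomes, Grhl2 and Ovol1, regulators of the epithelial state, Marveld2 and Marveld3, proteins of tight junctions, and Spint2 and St14, a protease inhibitor and its target protease. Grhl2 had a region at another start. Other epithelial genes did have a region, among them Grhl1 (6.05 log2 CPM), Jup (5.29), Ovol2 (3.30) and Cldn3 (2.00). Heart and skeletal muscle genes gave 4 of 9 (Pax7, Ryr2, Tbx20 and Des), kidney and gonad genes 6 of 14, glia and neural progenitor genes 5 of 13, and endoderm and gut genes 6 of 17. Pan-neuronal genes gave 11 of 40 (27.5%, interval 16.1% to 42.8%), among them Elavl3 and Elavl4, neuronal RNA-binding proteins, and Reln, a secreted guide of migrating neurons, 177927 bp from a region. Other genes of that list did have a region, such as Mapt at 4.56 and Tubb3 at 3.74 log2 CPM. Blood genes gave 3 of 15 and endothelial genes 2 of 10, with intervals that included the share of all CpG-rich starts.

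**Figure D2:**
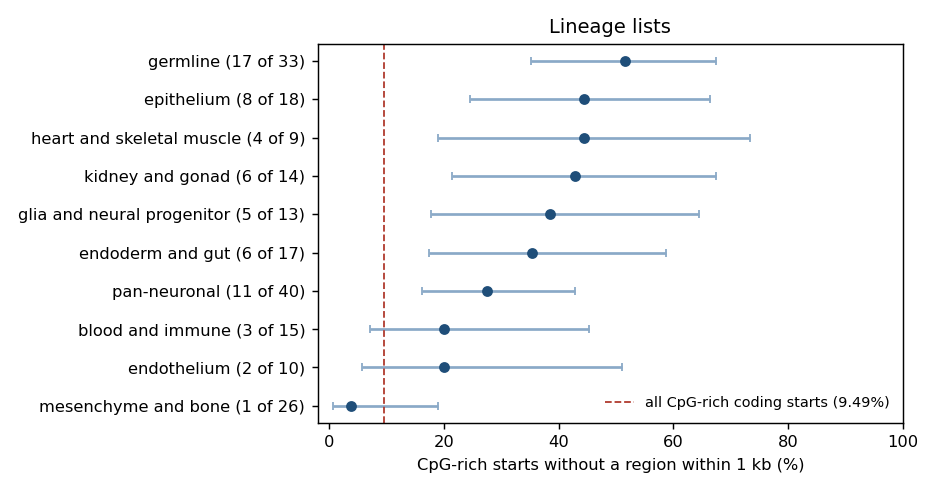
Share of CpG-rich starts without a region within 1 kb (x axis, percent) for 10 lineage lists (y axis, with the counts), with 95% Wilson intervals and the share of all CpG-rich coding starts as a dashed line. Germline genes stand highest at 51.5% and mesenchyme and bone genes lowest at 3.85%.

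The lineage given by the labels had the lowest share of the 10 lists. Of 26 CpG-rich starts in the mesenchyme and bone list, 1 had no region (3.85%), with an interval of 0.682% to 18.9% that included the share of all CpG-rich starts. Sox9, Twist1, Foxc1, Foxc2, Twist2, Snai1 and Scx, factors of skeletal and connective tissue progenitors, had levels between 5.53 and 6.24 log2 CPM. Others of the list were low, with Alx4 at 1.16, Foxd1, a factor of kidney stroma, at 2.03 and Alpl, the alkaline phosphatase of mineralising cells, at 2.33. When starts poor in CpG were included, 63 of the 77 genes of the list had a region within 1 kb, where 60.6% of all 20807 coding starts had one. They included Runx2 (5.05 log2 CPM), Sp7 (4.06), Col1a1 (4.35) and Dmp1 (4.41), while Sost, an osteocyte product, lay 1817 bp and Pdpn 20747 bp from a region.

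Few starts in the lists of genes that every cell needs lacked a region, though these lists do not cover all such genes. Ribosomal proteins, proteasome subunits, respiratory chain subunits, splicing factors and translation initiation factors together had 244 CpG-rich starts, 8 of them without a region (3.28%, interval 1.67% to 6.34%). The 8 were Rps25, Mrpl43, Psma7, Psmg1, Ndufa6, Atp5g1, Snrpe and Eif4a3. At least 91.3% of the 50-base words around each of these starts occurred once in the genome. All 8 lay more than 10 kb from the nearest region (10499 to 48134 bp), inside region-free intervals of 45.3 to 130 kb, and none of the 8 genes held a region. Eef2, the elongation factor of protein synthesis, and Xpo1, the main nuclear export receptor, were further members outside these lists, named after their values were seen, 14417 and 5494 bp from a region. Whether such starts were closed, or open and missing from the list, was not tested.

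The distance to the nearest region differed among the groups. Over all 783 members it had a median of 15413 bp, quartiles of 4499 and 43888 bp, and extremes of 1014 and 4336879 bp. A region lay within 5 kb of 216 members and within 10 kb of 324, and 112 members (14.3%) had none within 100 kb. Transcription factor members had a median of 5946 bp, and 48 of the 72 had a region within 10 kb. For channel, receptor and synapse members the median was 14772 bp, with 33 of 74 within 10 kb, and for germline members 16080 bp, with 7 of 17. None of the 8 housekeeping members had a region within 10 kb.

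**Figure D3:**
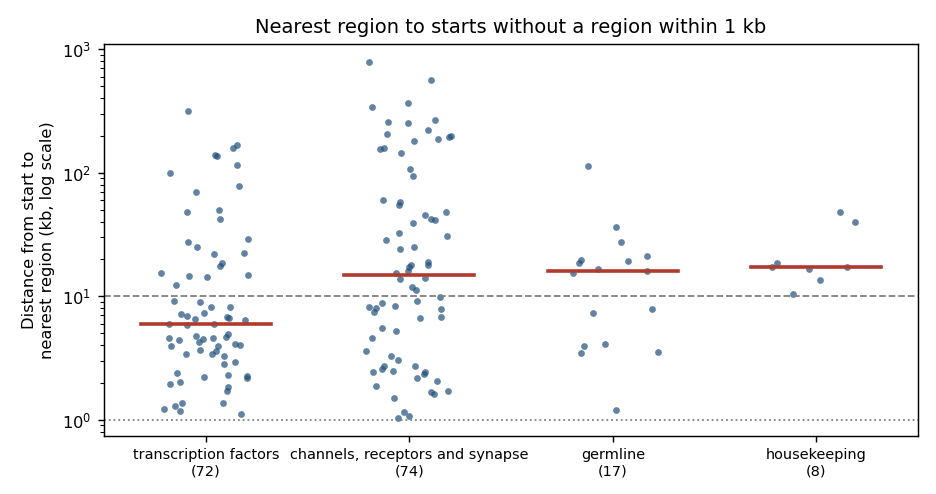
Distance in kb from each member's start to the nearest region (y axis, log scale) in 4 sets of lists (x axis, with the number of members). Each point is a start without a region, the horizontal bars are medians, and the dotted and dashed lines mark 1 and 10 kb. Most transcription factor members lie between the lines and all 8 housekeeping members lie above the dashed line.

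Many members had no region anywhere in the gene. This was so for 388 of 783 (49.6%), against 34 of 7469 (0.455%) of the CpG-rich starts with a region, a contrast that follows in part from the selection since a region at the start often overlaps the gene. The member starts had a median of 9 regions within 100 kb, with quartiles of 3 and 15, and the others a median of 16, with quartiles of 10 and 21. The region nearest to a member had a median level of 1.75 log2 CPM, with quartiles of 1.08 and 2.77.

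For 125 members (16.0%, interval 13.6% to 18.7%) another annotated start of the same gene did have a region within 1 kb, which left 658 genes without a region at any start. Of the members, 601 had more than 1 annotated start position. The genes with a region at another start included Auts2, a neuronal regulator with 20 start positions, Kcnab2, Gabbr2, Dpysl5, Crmp1, Syn2, Mbp and Sema4d. Among transcription factor members 12 of 72 had a region at another start, among germline members 2 of 17 and among housekeeping members 0 of 8. The share of CpG-rich homeobox starts in genes without a region at any start was 29 of 90, against 658 of 8252 for all CpG-rich starts.

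The length of the CpG-rich stretch was measured as the run of overlapping 200-base windows around the start with at least 50% GC and a CpG ratio of at least 0.6. Members as a whole had a median of 1054 bp, with quartiles of 852 and 1394 bp, and starts with a region 1156 bp, with quartiles of 934 and 1455 bp, so that the distributions overlapped widely. Transcription factor starts had longer stretches whether or not they had a region, with medians of 1524 bp (72 members) and 1613 bp (211 starts). Germline members had short ones, with a median of 867 bp, against 1300 bp for the 16 germline starts with a region. The longest stretches among members were those of Tlx3 (4502 bp), Hs3st3b1 (3862 bp), a sulfotransferase of heparan sulfate, Sall1 (3634 bp), Olig2 (3130 bp) and Insm1 (3106 bp), followed by Lhx1 (2986 bp), Gm43517 (2986 bp), Nkx1-1 (2948 bp), Auts2 (2910 bp) and Sox1 (2899 bp). A region overlapped the stretch at 8 of the 783 members, among them Tlx3, Hs3st3b1, Insm1 and Adrb1.

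**Figure D4:**
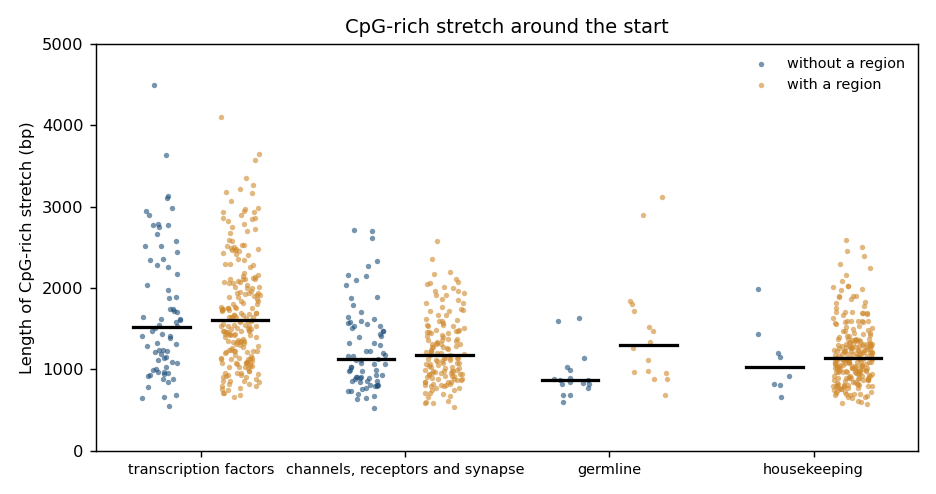
Length of the CpG-rich stretch around the start (y axis, bp) for starts without (blue) and with (orange) a region in 4 sets of lists (x axis). Points are starts and black bars are medians, which differ most in the germline list, 867 bp against 1300 bp, and are close in the transcription factor lists, 1524 bp against 1613 bp.

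GC content did not separate the members, with a median of 62.5% against 62.6% at starts with a region, while their CpG ratio was lower, with a median of 0.752 against 0.801. Both values were limited by the rule from below.

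Sequence motifs were searched on both strands of the 1 kb around each start, as exact letters. The ETS motif CCGGAAG, typical of promoters of ubiquitously expressed genes, was present at 20.3% of members (interval 17.6% to 23.3%) and 31.4% of starts with a region (30.4% to 32.5%), and at 30.4% of all CpG-rich starts. It was lower among members in each of 3 equal classes of CpG ratio, at 18% against 29.6%, 23.6% against 31.7% and 20.9% against 32.9%. Homeobox members held it at 1 of 33 starts and homeobox starts with a region at 5 of 57, while the housekeeping starts with a region held it at 112 of 236 (47.5%). Within the transcription factor lists (9.72% of 72 and 16.1% of 211) and within the channel, receptor and synapse lists (10.8% of 74 and 11.2% of 143) the intervals of members and other starts overlapped.

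The YY1 motif AAGATGGC was present at 7.28% of members and 10.5% of starts with a region (10.2% of all), and the CRE motif TGACGTCA at 3.07% and 5.29% (5.08% of all), and in both cases the intervals did not overlap. They did overlap within each class of CpG ratio and in the 500 bases upstream of the start, where those of the ETS motif did not. The NRF1 motif GCATGCGC, at 6.9% and 8.78% (8.6% of all), had overlapping intervals. The E2F motif GCGGGAA, the E-box CACGTG and CCAAT had shares whose intervals overlapped between members and other starts, with 25.4% and 27.4%, 24.0% and 22.7%, and 61.3% and 62.4%. The shares over all CpG-rich starts were 27.2%, 22.8% and 62.3%. The GC box GGGCGG was present at 93.1% of members and 95.2% of starts with a region (95% of all). The HIF core in its form ACGTG, letters that CACGTG contains, was found at 58.4% of members and 61.5% of starts with a region, and as GCGTG at 91.3% and 91.2%. In all CpG-rich starts these forms were found at 61.2% and 91.2%. In the 500 bases upstream of the start, GCGTG was found at 60.7% of members (interval 57.2% to 64%) and 68% of starts with a region (66.9% to 69%), or 67.3% of all.

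**Figure D5:**
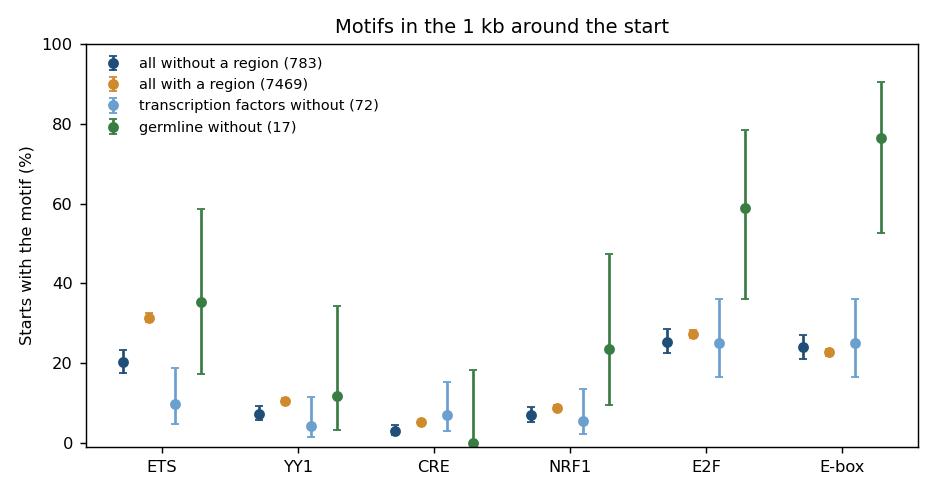
Share of starts with a motif in the 1 kb around the start (y axis, percent) for 6 motifs (x axis) in all members, all starts with a region, transcription factor members and germline members, with 95% Wilson intervals. The ETS motif is at 20.3% of members and 31.4% of starts with a region, and the E-box is at 76.5% of the 17 germline members.

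Germline members differed in their motifs from the members as a whole, a pattern singled out after the values were seen. The E-box CACGTG, the sequence bound by the Mga and Max repressors of germline genes among other factors, was present at 13 of 17 germline members (76.5%, interval 52.7% to 90.4%), against 22.8% of all CpG-rich starts and 6 of 16 germline starts with a region (interval 18.5% to 61.4%). E2F motifs were present at 10 of 17 and 6 of 16. The intervals of germline starts with and without a region overlapped, and the difference between them was not tested.

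The E-box sites closest upstream of a start are printed for 6 germline members, with 12 bases on either side, on the gene's strand from 5′ to 3′ in mm10. CACGTG is in capitals, and the distance is that of its leading base from the start.
Tdrd1 (chr19:56826186-56826215, 11 bases upstream): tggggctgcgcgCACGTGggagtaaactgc
Rnf212 (chr5:108774982-108775011, 17 bases upstream): tcgcgcgagtctCACGTGggtcctcggtca
Sycp3 (chr10:88459532-88459561, 25 bases upstream): acgggcatggagCACGTGctaggaggcggg
Tex12 (chr9:50561344-50561373, 36 bases upstream): ccgcgagactgtCACGTGgctcgcgcgctg
Slc25a31 (chr3:40708766-40708795, 77 bases upstream): cgcaactggaaaCACGTGttatggtcacat
Sycp1 (chr3:102936177-102936206, 94 bases upstream): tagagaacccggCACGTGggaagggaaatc
Downstream sites, not printed, began 49 bases after the start at Mei1, 78 at Rnf212, 136 at Ddx4 and 236 at Lin28b. Sycp3, Sycp1, Tdrd1, Rnf212 and Mei1 held 2 E-boxes each, and the other 8 germline members with a match held 1.

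The RE1 element, bound by the repressor REST that silences neuronal genes outside the nervous system, was searched as CAGCACC, any 2 bases and GGACAG. It was found at 2 of 783 members (0.255%) and 10 of 7469 starts with a region (0.134%), or 12 of all 8252. The members were Kcnt1, a sodium-activated potassium channel, and Tmem181a, whose surroundings were mostly repeated sequence (18.1% of words unique). The match at Kcnt1 began 342 bases after the start and read on the gene's strand, with the element in capitals and in reverse complement:
Kcnt1 (chr2:25864069-25864098): ggcggagCTGTCCGCGGTGCTGagtcccgc

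Repeated sequence was more frequent at members, and its part in their lack of a region was not tested. At 88 of 783 members (11.2%, interval 9.21% to 13.6%) less than 90% of the 50-base words within 1 kb occurred once in the genome, against 168 of 7469 starts with a region (2.25%). Of the 256 CpG-rich starts in such sequence 88 (34.4%) had no region, and of the 7996 others 695 (8.69%). The 72 transcription factor members and the 74 channel, receptor and synapse members included none in such sequence, and the 17 germline members 1, Zar1. Of the 68 members with predicted gene or clone names, 40 lay in it. Genes whose coding transcripts had a single exon gave 67 of 277 (24.2%), and 21 of these 67 members lay in repeated sequence.

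Members tended to be neighbours along the chromosome. After a CpG-rich start without a region, the next CpG-rich start also lacked a region in 197 of 781 cases (25.2%, interval 22.3% to 28.4%), against 584 of 7452 (7.84%) after a start with a region. Among starts in sequence at least 90% unique it was 133 of 693 (19.2%) against 561 of 7284 (7.7%). Neighbouring starts can share a promoter, and for such starts over 2 kb apart, a limit chosen after seeing the data, it was 115 of 675 (17%, interval 14.4% to 20.1%) against 561 of 6510 (8.62%, interval 7.96% to 9.32%). The longest run held 16 predicted genes between 3412614 and 7315049 on chromosome 14, where at most 40.9% of words were unique. The 10 members farthest from any region, at 2247819 to 4336879 bp, all belonged to this run.

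The next run differed in that all words within 1 kb of its starts were unique. It held 9 starts over 103 kb on chromosome 11, those of Gcgr, Mcrip1, P4hb, Arhgdia, Alyref, Anapc11, Pcyt2, Sirt7 and Mafg, in a region-free interval of 145 kb. Of these, P4hb encodes protein disulfide isomerase, Anapc11 a subunit of the anaphase-promoting complex and Alyref an mRNA export factor. A run of 8 on chromosome 9 (Cbl, Hinfp, C2cd2l, H2afx, Hyou1, Slc37a4, Rps25 and Trappc4) spanned 174 kb with 91.3% to 100% of words unique. A run of 8 histone genes on chromosome 13 spanned 79.9 kb with at most 74.8% unique, and a run of 6 on chromosome 12 included the repeated genes Srp54a, Srp54b and Srp54c. The reason for the lack of regions in these runs was not tested.

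In all, 474 of the 783 members stood alone, with a region at both neighbouring CpG-rich starts or at the end of the chromosome. The share of members by chromosome ran from 4.33% on chromosome 19 (13 of 300) to 16.2% on chromosome 9 (79 of 489). Chromosomes 13 (15.8%) and 14 (13.8%) also stood high. In sequence at least 90% unique, chromosome 14 had 5.86%, chromosome 13 had 13.7% and chromosome 9 had 16.1%.

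At the 1 kb limit of the rule, the members just outside were Gm4969 (1014 bp), Ppl (1027 bp), Grin3b (1035 bp), Kbtbd13 (1048 bp) and Bcl3 (1051 bp). The starts just inside were Ap1m2 (998 bp), Zfp503 (982 bp), St8sia2 (981 bp), Pcdh15 (978 bp) and Phf10 (978 bp). Between 1 and 2 kb lay 71 members. The genes at the limit did not belong to a common list.

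By gene symbol, 304 of the 783 members (38.8%) were in at least 1 of the family or lineage lists, against 18.1% of the starts with a region, and the other 479 were in none. Solute carriers outside transmitter transport gave 19 of 129 (14.7%, interval 9.64% to 21.9%). Among 265 symbol stems with at least 5 CpG-rich starts, a count that used no list, 137 had no member and 15 had at least 40% of their starts among the members. The highest were Tbx (4 of 5), Nkx (5 of 8), the stem of Six2, Six3 and Six6 (3 of 5), Bend (3 of 5) and Lrfn (3 of 5), the last a family of synapse adhesion proteins. The stem Hist of the histone genes had 14 of 29, all in repeated sequence except Hist1h1e (92.3% of words unique) and Hist2h2be (90.8%). The stem Srp had 3 of 7 members, all of them copies of Srp54 in repeated sequence.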

How the data were processed

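ATAC-seq libraries of 11 cultures underlay the list of regions. The authors trimmed reads with Trim Galore, aligned them to mm10 with Bowtie2, removed duplicates with Picard 2.17.8 and reads of low mapping quality, called peaks with MACS2 2.2.7.1, merged peaks over samples, dropped blacklisted and sparsely cut regions, counted cuts with pyDNase and normalised with edgeR 3.24.3, per the labels and the study's methods. A merged region may stem from a few of the cultures, and the filters on mapping quality and on cuts can remove regions in repeats or with few cuts. The deposited list held 94963 regions with 1 log2 value each, pooled over samples. The unit, average log2 CPM, was inferred because 460 values fell below 0 and the values, taken out of the log2 scale, had a sum of 1012761. Without a value per sample, the depth per sample is unknown and comparisons between groups were not possible from this list.

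Gene starts were the most upstream annotated transcript start of 20807 autosomal protein-coding genes in GENCODE M21 on GRCm38, the same assembly as mm10. Of the member starts, 586 matched a RefSeq promoter entry by symbol, and 536 of those lay within 500 bp of a RefSeq start. The CpG-rich stretch was searched 5000 bases to either side. Uniqueness was the share of 50-base words within 1 kb that occurred once on either strand. A region-free interval runs between the nearest regions on either side. Shares carry 95% Wilson intervals, which cover counting error only and treat genes as independent. No test was run. Word counts, motif search, stretch finder and distances were checked on made-up sequence. Python 3.11.15, numpy 2.4.6, pandas and scipy were used.

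The members and the gene lists were chosen with earlier results of these data known. Named genes were, in each list, the up to 4 members with the longest stretch, the longest, farthest and nearest members of all, the longest runs, members with an RE1 match, and further members listed for the groups, which were named after their values were seen, as were the genes with a region given for comparison. The alternatives varied the distance limit, which starts, regions and windows counted, the composition limits and repeated sequence. Some single genes are not reported here.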

Additional observations from a re-analysis of the deposited data

How the results depend on the processing

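No paired analysis was possible because values were pooled over the cultures, and groups could not be compared from this list for the same reason. The share of CpG-rich starts without a region, 9.49%, moved with the distance limit to 10.3% (500 bp), 8.63% (2 kb) and 6.87% (5 kb). It was 14% when only regions at least 500 bp wide counted, 10.6% with regions of at least 1 log2 CPM, 7.97% when every annotated start had to lack a region, 7.65% with GC of at least 60% and a CpG ratio of at least 0.75, and 8.69% in sequence at least 90% unique. In 2 alternatives chosen after seeing the data it was 4.16% among starts with a region within 10 kb and 7.41% without region-free intervals shared by 2 or more members.

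The share of transcription factor starts became 13.4% at 5 kb and 18.5% with a region within 10 kb. That of channel, receptor and synapse starts became 24.4% and 18.8%. Germline starts were at 33.3% under the stricter composition (3 of 9) and 30.4% with a region within 10 kb. Housekeeping starts were at 0% with a region within 10 kb, a value fixed by that choice since all members lay farther away, and 1.26% without shared intervals. Mesenchyme and bone starts were at 0% at 5 kb, when every start had to lack a region, and under the stricter composition. The 10 kb restriction and the distance limits use the measure that chose the members, so they lend the shares no independent support. In all 9 settings run for the lists, that of the report included, the transcription factor, channel, receptor and synapse, and germline shares were above that of all CpG-rich starts and the housekeeping and mesenchyme shares below it. Several other lists, among them Hox, forkhead, cadherin, solute carrier, heart and skeletal muscle and proteasome genes, changed sides in at least 1 setting. With depth unknown, the number of weak regions missed at these starts is unknown too.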

Other observations

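Further members belonged to groups that the lists did not cover, named here after their values were seen. Cdkn2a and Cdkn2b, neighbouring inhibitors of the cell cycle on chromosome 4, both lacked a region. The start of Cdkn2a lay 127085 bp from the nearest region, inside a region-free interval of 545 kb. Why this interval held no region was not tested. Atf4, a regulator of the amino acid stress response, lay 22574 bp from a region next to Mief1 and Rps19bp1, which shared its region-free interval of 51.6 kb. The YY1 motif was present at 4 of the 8 housekeeping members and 40 of the 236 housekeeping starts with a region (16.9%), and the ETS motif at 4 of 8 and 112 of 236. With 8 members the intervals of these shares (21.5% to 78.5% for 4 of 8) are wide.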
